A study of Mus musculus with 3 samples.

Results

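The cadherin and protocadherin genes of mouse astrocytes made in culture from embryonic stem cells are described here. The members are the 56 genes, of 18194 measured, whose platform symbol is Cdh with a number or Pcdh with any numbers or letters, read from probe sets annotated to 1 gene. They comprise 5 type I and 11 type II classical cadherins, 5 other cadherins, 12 non-clustered protocadherins and 23 clustered protocadherins. The stem cells were carried through embryoid bodies for 4 days and a selection medium for 5 to 7 days into neural precursors kept in FGF2 and an EGF. At 18 passages from the embryoid bodies the precursors were made into astrocytes by taking away the growth factors and giving 5% fetal bovine serum for 5 days. All 3 samples, labelled wild type, belong to a single group with no other condition to compare, and total RNA from each was hybridised to an Affymetrix mouse expression array. The stem cell line is not given in the sources used here, and the labels do not tell whether separate cultures were used, so the p-values reflect variation among these samples that may be technical only.

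Most cadherins are single-pass membrane proteins that bind cadherins on neighbouring cells in the presence of calcium. Classical cadherins are tied to actin through catenins on their cytoplasmic tails. Protocadherins have more cadherin repeats outside the cell and different tails, and give cells of the nervous system surface identities. The clustered protocadherin genes lie in the neighbouring alpha, beta and gamma arrays. In the alpha and gamma arrays each variable first exon is spliced to constant 3′ exons that all isoforms of the array share, whereas the beta genes have no constant exons. A probe set in a constant exon therefore cannot tell the isoforms apart.

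Levels are mean log2 signal ± SD (n = 3), with no pseudocount. Each gene was set against a background limit, the 95th percentile of 77 olfactory, vomeronasal, trace-amine and taste receptor genes, which was 3.99, 4.10 and 4.07 on replicates 1, 2 and 3 (mean 4.05). Above background means an adjusted p below 0.05 in a one-sided limma one-sample test fitted over 18117 genes. Failing this test does not show that a gene was silent. Where genes are ordered or summed by level, this describes signal and is not read as amounts of RNA. In these bulk samples a low signal from few cells and from little RNA per cell cannot be told apart. All 8 astrocyte markers and all 4 neural precursor markers were above background, among them Gfap, the astrocyte intermediate filament, at 12.63 ± 0.12. The precursor markers Fabp7, Sox2, Nes and Pax6 were at 12.83 ± 0.024, 11.42 ± 0.24, 10.45 ± 0.60 and 8.97 ± 0.15. Of the markers of other cells, 3 of 6 neuronal, 2 of 6 oligodendrocyte lineage, 1 of 5 microglia and blood, 1 of 5 endothelial and 2 of 3 ependymal genes were above it. None of 4 epithelial, 3 pluripotent, 4 mesenchymal and 2 Schwann cell and neural crest genes was (limma), and 0 of each had an unadjusted p below 0.05.

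Of the 56 members, 29 (51.8%) were above background, against 58.3% of all genes tested. The median distance from the limit was 0.84 log2 units for the members and 1.76 for all genes tested. By class, 2 of 5 type I cadherins, 5 of 11 type II cadherins, 1 of 5 other cadherins, 7 of 12 non-clustered protocadherins and 14 of 23 clustered protocadherins were above background. In all, 8 of 21 Cdh genes (38.1%) and 21 of 35 Pcdh genes (60.0%) were. At an unadjusted p below 0.05 the count of members was 30.

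To show the sequence next to members that neighbour each other and yet differ in signal, the 250 bases before the RefSeq gene start are given for Cdh6, Cdh9 and Cdh10, which follow each other on chromosome 15 with no other protein-coding gene between them in GRCm38.p6. The windows are chr15:13173676-13173925 (minus strand), chr15:16728665-16728914 (plus strand) and chr15:18820079-18820328 (plus strand). Capitals mark the longest stretch that the windows of Cdh6 and Cdh9 share exactly.
Cdh6: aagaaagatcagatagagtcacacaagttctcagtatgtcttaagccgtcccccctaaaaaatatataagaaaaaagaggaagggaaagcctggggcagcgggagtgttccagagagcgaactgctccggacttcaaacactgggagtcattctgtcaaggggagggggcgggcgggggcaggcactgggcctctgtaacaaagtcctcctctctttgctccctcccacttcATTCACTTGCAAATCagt
Cdh9: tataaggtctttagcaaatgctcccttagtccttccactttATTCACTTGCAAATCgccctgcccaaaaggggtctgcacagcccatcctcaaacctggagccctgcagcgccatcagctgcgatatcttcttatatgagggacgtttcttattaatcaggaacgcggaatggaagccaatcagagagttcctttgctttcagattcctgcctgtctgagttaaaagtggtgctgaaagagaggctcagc
Cdh10: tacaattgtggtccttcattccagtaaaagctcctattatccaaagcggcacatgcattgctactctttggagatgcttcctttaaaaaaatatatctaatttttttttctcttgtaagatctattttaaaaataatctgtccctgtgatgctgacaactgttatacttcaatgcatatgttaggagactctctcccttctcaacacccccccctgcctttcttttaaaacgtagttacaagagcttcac
The stretch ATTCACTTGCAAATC is 15 bases long. It begins 18 bases before the start of Cdh6 and 209 bases before that of Cdh9. Of 27025 promoter windows of this length, 1 per gene, searched on both strands, 2 (0.0074%) held it. These are the 2 windows that it was taken from. The median longest shared stretch over the 190 pairs of windows of 20 members was 8 bases. The stretch of Cdh6 and Cdh9 is the longest of these 190. Stretches of 13 bases were shared by Cdh15 and Pcdh17, by Cdh18 and Cdh9, and by Cdh6 and Cdh8. The 15-base stretch was sought after the sequences were seen, and it is a description of the letters only. Of the genes that hold it, Cdh6 was above background and Cdh9 was not.

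The type I cadherins above background were Cdh2 and Cdh4. Cdh2, the N-cadherin of neural tissue, had a log2 signal of 10.78, 11.18 and 11.37 on replicates 1, 2 and 3, with a mean of 11.11 ± 0.30 (adjusted p = 3.84e-05). Its second probe set was also above background, at 10.16 ± 0.24. Cdh4, or R-cadherin, first known from the retina, was at 7.99, 8.19 and 8.65 on the arrays, with a mean of 8.28 ± 0.34 (adjusted p = 8.36e-05). For both genes the lowest of the 3 arrays lay well over the limit, and the differences between arrays were below 1 log2 unit. For Cdh4, 2 of 3 probe sets were above background, and the third was at 1.39 ± 1.82.

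The type I cadherins of other tissues were not above background. Cdh1, the E-cadherin of epithelia and of pluripotent cells, was at 0.34, 0.14 and 2.49, below the limit on each array. Cdh3, the P-cadherin of placenta and some epithelia, was at 3.66, 3.41 and 1.77, and neither of its probe sets passed. Cdh15, the M-cadherin of muscle, was at 1.83, 4.71 and 4.36 and lay over the limit on replicates 2 and 3 but below it on replicate 1. Its mean of 3.63 ± 1.57 did not pass (adjusted p = 1). Cdh1 and Cdh3 are neighbouring genes. Of 5 transcription factors that repress Cdh1 elsewhere, 3 were above background, against 58.3% of all genes tested. These were Zeb1 at 9.49 ± 0.31, Zeb2 at 6.83 ± 0.26 and Twist1 at 7.58 ± 0.22. Zeb1 passed on 2 of 4 probe sets and Zeb2 on 3 of 5. Snai1 and Snai2, at 2.19 ± 1.05 and 2.50 ± 1.24, were not above background. A link between these genes and the Cdh1 signal was not tested.

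**Figure D1:**
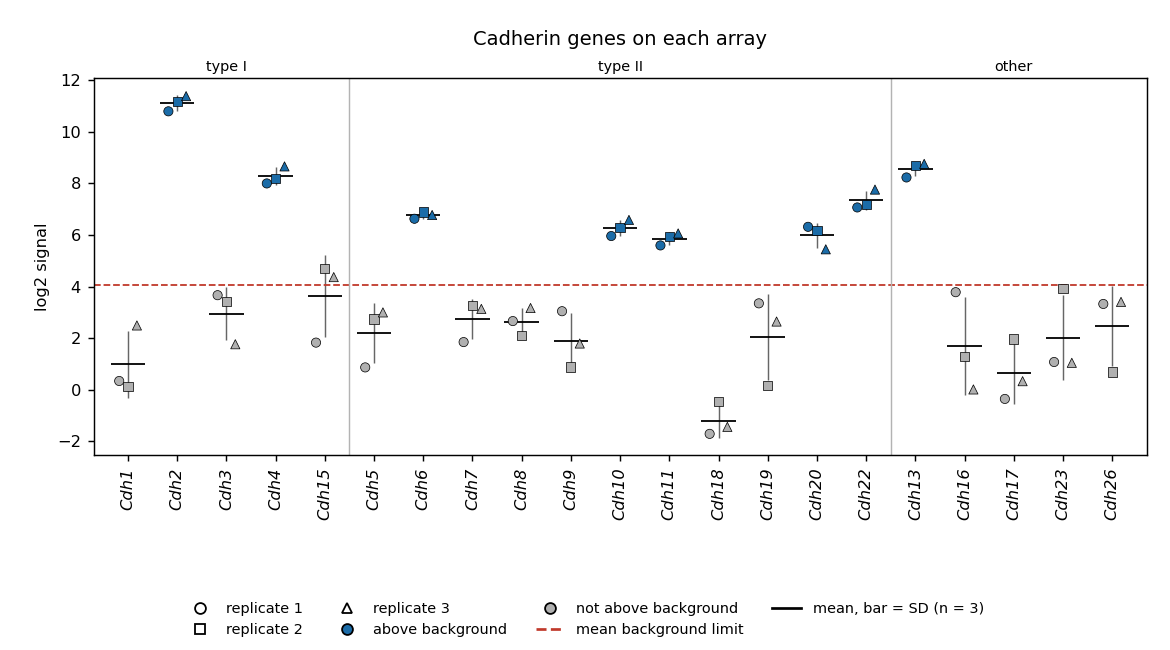
Log2 signal (vertical axis) of the 21 Cdh genes on each of the 3 arrays, grouped as type I, type II and other cadherins, with the mean (line), SD (bar, n = 3) and the mean background limit of 4.05 (dashed). Cdh2, Cdh4, Cdh6, Cdh10, Cdh11, Cdh20, Cdh22 and Cdh13 (blue) lie over the limit on every array, and the other 13 genes (grey) were not above background.

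Among type II cadherins, which are known for finely divided patterns over brain regions and cell groups, Cdh6, Cdh10, Cdh11, Cdh20 and Cdh22 were above background. Cdh6, first described in kidney and also present in the developing brain, was at 6.62, 6.88 and 6.77 on replicates 1, 2 and 3, with a mean of 6.76 ± 0.13 (adjusted p = 9.97e-05). Both of its probe sets passed, and its SD of 0.13 was small beside its distance of 2.70 log2 units from the limit. Cdh22, a cadherin of brain and pituitary, was at 7.06, 7.18 and 7.75 (mean 7.33 ± 0.37, adjusted p = 0.000193). Cdh20 was at 6.31, 6.18 and 5.44 (mean 5.98 ± 0.47, adjusted p = 0.00217), with replicate 3 the lowest.

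Cdh10 and Cdh11 rested on part of their probe sets. Cdh10, a brain cadherin also found at the blood-brain barrier, was at 5.95, 6.28 and 6.58 (mean 6.27 ± 0.31, adjusted p = 0.000406) on 1 of 4 probe sets. Its other probe sets had means of 4.20, 4.02 and 2.18. Cdh11, the osteoblast cadherin of mesenchyme, was at 5.59, 5.92 and 6.06 (mean 5.86 ± 0.24, adjusted p = 0.000495) on 1 of 2 probe sets, and the other was at 2.64 ± 1.67. When each gene took the median over its probe sets, Cdh10 and Cdh11 did not pass, at 0.078 and 0.22 log2 units from the limit (adjusted p = 0.608 and 0.563, limma), and the type II count was 3. The mesenchymal markers Col1a1, Col1a2, Col3a1 and Pdgfrb had means of 1.26 to 3.72, and 0 of the 4 were above background (limma; 0 at an unadjusted p below 0.05). Their summed linear signal was 23.4, 38.8 and 33.3 on the 3 arrays.

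The other 6 type II genes were below the limit on each array. Cdh5, the VE-cadherin of endothelial junctions, was at 0.87, 2.74 and 2.998. Cdh19, a cadherin of Schwann cell precursors, was at 3.35, 0.16 and 2.64. With the median deviation of each array taken out, Cdh5 ranged over 1.79 and Cdh19 over 3.38 log2 units between arrays, and the median range was 2.12 for the members not above background and 1.60 for all such genes. Cdh7 and Cdh8, which mark subsets of neurons and neural crest derivatives, were at 1.85, 3.27 and 3.13 and at 2.66, 2.10 and 3.17. Cdh9, a cadherin of synapses in the hippocampus, was at 3.04, 0.88 and 1.79, and Cdh18, a cadherin of the central nervous system, was at -1.70, -0.44 and -1.43. None of the 11 probe sets of these 6 genes passed (0 at limma adjusted p below 0.05). Among endothelial markers Kdr, a growth factor receptor, was above background at 6.59 ± 0.46, while Pecam1, Cldn5, Tek and Emcn were not, at means of 1.56 to 2.95.

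Of the cadherins outside the classical types, Cdh13 was above background and the other 4 were not. Cdh13, the T-cadherin held in the membrane by a lipid anchor and without a cytoplasmic tail, was at 8.22, 8.67 and 8.75 on replicates 1, 2 and 3, with a mean of 8.55 ± 0.28 (adjusted p = 5.58e-05). Of its 4 probe sets 3 passed, and the remaining one was at 0.036 ± 1.62. Cdh16 of kidney was at 3.78, 1.30 and 0.02, and Cdh17 of liver and intestine was at -0.35, 1.96 and 0.33. Cdh23, which with Pcdh15 forms the tip links of sensory hair cells, was at 1.08, 3.93 and 1.05, and Cdh26 was at 3.32, 0.69 and 3.40. All of these were below the limit on every array.

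Non-clustered protocadherins are split by their tails into delta-1 and delta-2 genes and a few others. Of the 12 genes, 7 (58.3%) were above background, the same share as over all genes tested (58.3%). Of 4 delta-1 genes 3 were above background, of 5 delta-2 genes 4, and of the other 3 genes none (limma; 0 at an unadjusted p below 0.05). The delta-1 gene Pcdh11x, which is X-linked, was at 6.91, 7.30 and 7.15 (mean 7.12 ± 0.20, adjusted p = 8.98e-05), on both of its probe sets. Pcdh7 was at 5.83, 6.43 and 5.73 (mean 5.995 ± 0.38, adjusted p = 0.000955), and Pcdh9 was at 5.44, 5.96 and 6.26 (mean 5.89 ± 0.42, adjusted p = 0.00131), each on 2 of 3 probe sets. Pcdh1, which has 1 probe set, was over the limit on each array, at 4.29, 4.18 and 5.85, and did not pass (adjusted p = 0.141). Its replicate 3 stood apart from the other two, and the SD of 0.94 exceeded its distance of 0.72 from the limit.

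The delta-2 protocadherins act in cell movement and axon growth. Pcdh10, which binds regulators of actin in growing axons, was at 9.35, 9.64 and 9.36 (mean 9.45 ± 0.16, adjusted p = 3.88e-05) and above background on 5 of 6 probe sets. Pcdh8, a homologue of frog paraxial protocadherin that is also induced by activity in neurons, was at 9.08, 9.50 and 9.83 (mean 9.47 ± 0.37, adjusted p = 5.55e-05), on both probe sets. This value came from a probe set able to bind more than 1 transcript, and without it Pcdh8 was at 8.63 ± 0.24, 4.58 log2 units from the limit in place of 5.42. Pcdh19, an X-linked gene mutated in an epilepsy of girls, was at 7.34, 7.68 and 7.93 (mean 7.65 ± 0.30, adjusted p = 9.59e-05), on all 3 probe sets. In these 3 genes the spread between arrays was small beside the distance from the limit. Pcdh18 was nearer to it, at 4.51, 5.48 and 5.13 (mean 5.04 ± 0.49, adjusted p = 0.0129), on 1 of 3 probe sets. It did not pass without replicate 2 (0.79 log2 units from the limit, adjusted p = 0.0576, limma) or without replicate 3 (0.95, adjusted p = 0.0688), nor with the median over its probe sets (0.037, adjusted p = 0.793). Pcdh17 was over the limit on each array, at 4.24, 4.49 and 5.45, and did not pass (mean 4.73 ± 0.64, adjusted p = 0.0766, unadjusted p = 0.0452). It passed under 4 of 11 alternative settings.

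Pcdh12, a protocadherin of endothelial cells and placenta, was at 3.83, 4.08 and 0.98, low on replicate 3. Pcdh15, the hair cell partner of Cdh23, was at 3.45, 2.76 and 3.96, and Pcdh20 was at 2.35, 1.44 and 3.28. None of these lay over the limit on any array, and none of their 8 probe sets passed. The endothelial genes Cdh5 and Pcdh12 were thus both below the limit on all 3 arrays. The summed linear signal of the endothelial markers was 81.9, 117 and 187 on replicates 1, 2 and 3, with the median deviation of each array left in. Of these 5 markers only Kdr was above background, at log2 6.20, 6.46 and 7.10, and the other 4 were below the limit on every array.

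**Figure D2:**
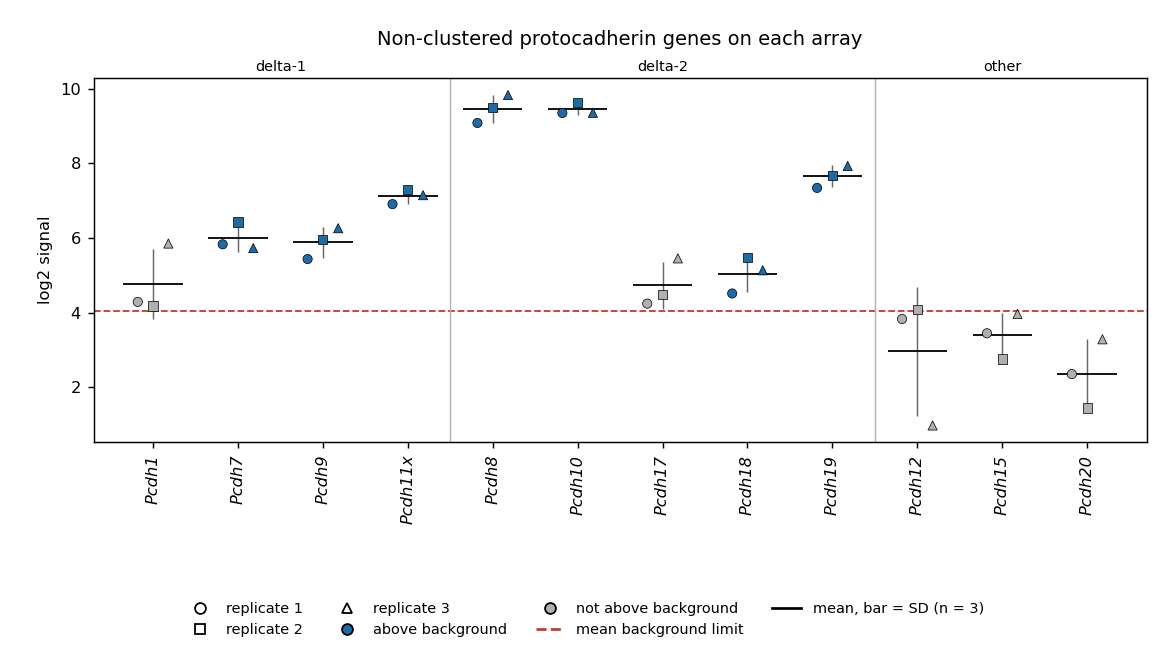
Log2 signal (vertical axis) of the 12 non-clustered protocadherin genes on each of the 3 arrays, grouped as delta-1, delta-2 and other genes, with the mean (line), SD (bar, n = 3) and the mean background limit of 4.05 (dashed). The 7 genes in blue were above background, and Pcdh1 and Pcdh17 (grey) lay over the limit on each array without passing the test.

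Promoter windows were found for 20 of the 56 members, 10 above background and 10 not. No clustered protocadherin was among them, and Cdh2, Cdh4 and Cdh13 were among the members without a window. The 250 bases before the gene start of Pcdh10, chr3:45378148-45378397 (plus strand), are shown because its CG dinucleotides, in capitals, are dense, and the start sites of many widely active genes lie in such stretches.
Pcdh10: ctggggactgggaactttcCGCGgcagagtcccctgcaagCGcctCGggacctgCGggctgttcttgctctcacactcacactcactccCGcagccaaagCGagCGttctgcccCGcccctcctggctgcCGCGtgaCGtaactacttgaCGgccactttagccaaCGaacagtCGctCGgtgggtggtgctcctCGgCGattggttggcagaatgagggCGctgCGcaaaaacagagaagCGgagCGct
This window held 22 CG dinucleotides and 63.2% G and C. The windows of Cdh6, Cdh9 and Cdh10 held 6, 6 and 2. The median was 13.5 (range 2 to 30) in the 10 members above background, 6 (range 0 to 21) in the 10 not above it and 6 over all 27025 windows. The ranges overlapped, as with Cdh10 at 2 and Cdh8, not above background, at 20. A link between CG number and signal was not tested, and these windows do not stand for all members. The letters TATAAA, on either strand, were in 2 of 20 member windows, those of Pcdh8 and Pcdh15, and in 13.0% of all windows.

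In the beta cluster 14 of 22 genes were above background, against 58.3% of all genes. The beta genes follow each other in the order of their numbers in GRCm38.p6, and each has its own exon. The 14 genes were Pcdhb3, Pcdhb7 to Pcdhb12, Pcdhb15 to Pcdhb17 and Pcdhb19 to Pcdhb22. Of the first 11 genes in the cluster 6 were above background, and of the last 11 genes 8. Of the 21 pairs of neighbours, 10 were both above background, 4 were both not and 7 were split. Outside the clusters 7 pairs of members were neighbours, and 5 of these were split: Pcdh20 and Pcdh9, Cdh6 and Cdh9, Cdh9 and Cdh10, Cdh8 and Cdh11, and Cdh11 and Cdh5. The other 2 pairs, Cdh7 with Cdh19 and Cdh3 with Cdh1, were not above background. Cdh9 and Cdh11 recur in the split pairs, so the pairs are not independent. The splits of Cdh9 with Cdh10, Cdh8 with Cdh11 and Cdh11 with Cdh5 rest on the calls of Cdh10 and Cdh11. Both calls were lost with the median over probe sets, at 0.078 and 0.22 log2 units from the limit (adjusted p = 0.608 and 0.563, limma). The share of split pairs among all neighbouring genes was not computed, and these pair counts are a description only.

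Array values follow for the 6 clustered genes farthest above the limit. Pcdhb9 was at 8.25, 8.67 and 8.58 on replicates 1, 2 and 3 (mean 8.50 ± 0.22, adjusted p = 4.78e-05). Pcdhb17 was at 7.85, 8.18 and 7.45 (mean 7.83 ± 0.36) and Pcdhb20 at 7.34, 7.74 and 7.66 (mean 7.58 ± 0.21). All 3 genes have 1 probe set each, and every array lay more than 3 log2 units over its limit. Pcdhb19 was at 6.86, 7.22 and 7.05 (mean 7.04 ± 0.18). Pcdhb16 was at 6.37, 7.41 and 6.87 (mean 6.88 ± 0.52), above background on all 3 of its probe sets, and Pcdhb21 was at 6.90, 7.55 and 6.02 (mean 6.82 ± 0.77), on both of its own. Pcdhb16 was highest on replicate 2 and lowest on replicate 1, and Pcdhb21 was highest on replicate 2 and lowest on replicate 3.

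The other beta genes above background had means from 4.59 (Pcdhb12) to 6.64 (Pcdhb22). Pcdhb3 had the smallest SD of these, at 6.04 ± 0.10. Pcdhb7, Pcdhb10 and Pcdhb11 were at 6.25 ± 0.19, 6.16 ± 0.27 and 6.37 ± 0.38. Nearest to the limit were Pcdhb12 at 4.59 ± 0.35 (adjusted p = 0.0402), Pcdhb8 at 5.02 ± 0.51 (adjusted p = 0.0203) and Pcdhb15 at 5.20 ± 0.28 (adjusted p = 0.00282). Pcdhb12 lost its call without replicate 2 or without replicate 3 (adjusted p = 0.144 and 0.101, limma) and with a mean-variance trend (0.0710), and its only probe set did not pass in the fit over probe sets (adjusted p = 0.0549). Pcdhb8 lost its call without replicate 1 or without replicate 2 (adjusted p = 0.0807 and 0.0812). Pcdhb15 passed on 1 of 2 probe sets, whose design allows it to bind more than 1 transcript, and the other was at 2.68 ± 1.80. With such probe sets left out, the distance of Pcdhb15 was -1.37 log2 units, and with the median of its pair of probe sets it was -0.090.

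Of the 8 beta genes not above background, Pcdhb1 and Pcdhb6 had means of 0.31 and 1.96. Pcdhb13, Pcdhb14, Pcdhb18 and Pcdhb4 lay between 3.07 and 3.64. Pcdhb2 and Pcdhb5 had means over the limit, at 4.11 ± 0.45 and 4.66 ± 0.87, and were below it on replicate 3. Pcdhb18 was at 4.75, 4.33 and 0.80, over the limit on replicates 1 and 2 and far below it on replicate 3. Without replicate 3 Pcdhb5 passed, at 1.12 log2 units from the limit (adjusted p = 0.0115, limma).

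**Figure D3:**
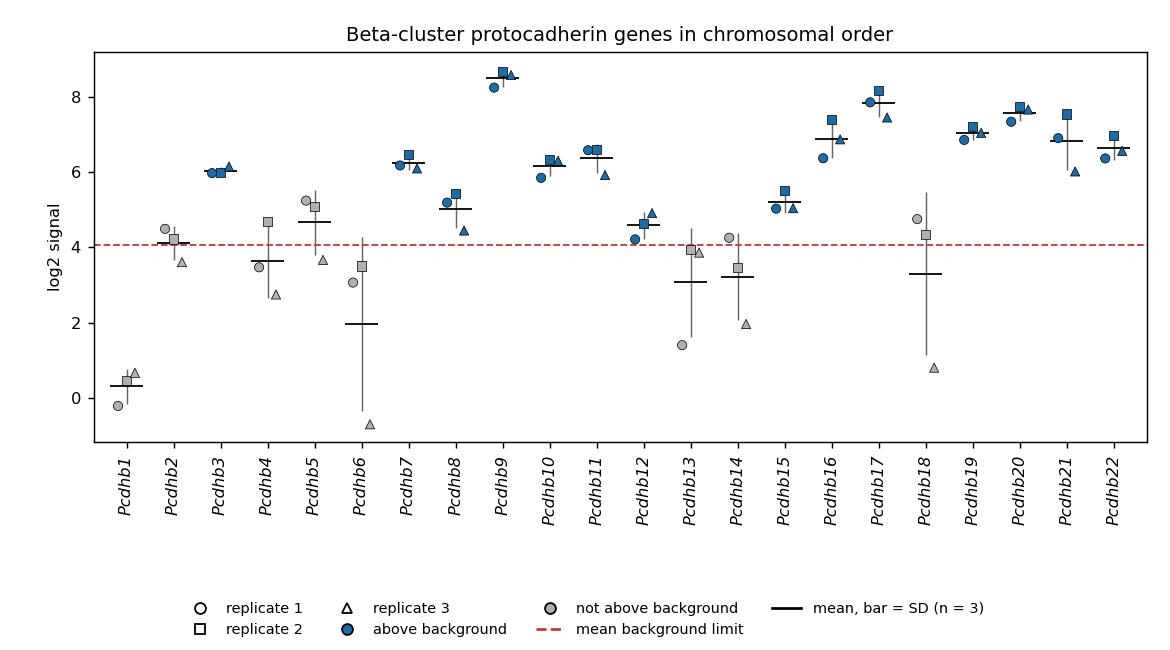
Log2 signal (vertical axis) of the 22 beta-cluster protocadherin genes on each of the 3 arrays, in chromosomal order (horizontal axis), with the mean (line), SD (bar, n = 3) and the mean background limit of 4.05 (dashed). The 14 genes in blue were above background, 6 of them among the first 11 genes and 8 among the last 11.

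The gamma array had 1 member, Pcdhgc4, an isoform linked to the survival of interneurons. It was at 3.78, 4.67 and 5.11, below the limit on replicate 1 and over it on replicates 2 and 3, and did not pass (mean 4.52 ± 0.68, adjusted p = 0.165). Without replicate 1 it passed, at 0.80 log2 units from the limit (adjusted p = 0.0404, limma). The alpha array had no member, because its 14 genes were listed only on 6 probe sets that name several genes, 3 of them with 14 genes and 3 with 9. The 3 probe sets listed for 14 genes were over the limit on each array. The first was at 8.63, 8.84 and 9.53 on replicates 1, 2 and 3, the second at 7.86, 8.07 and 7.87, and the third at 5.09, 6.17 and 5.78. The 3 listed for 9 genes had means of 2.54, 2.70 and 3.55, below the limit. They name no single gene and were not part of the test.

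Members with several probe sets often had some that did not pass. Of 16 members above background with 2 or more probe sets, 9 had at least 1 that was not above background. Of all 101 member probe sets 46 (45.5%) were above background in a fit over probe sets, against 52.2% of all 34873 tested. Every probe set passed for Cdh2, Cdh6, Pcdh8, Pcdh11x, Pcdh19, Pcdhb16 and Pcdhb21.

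**Figure D4:**
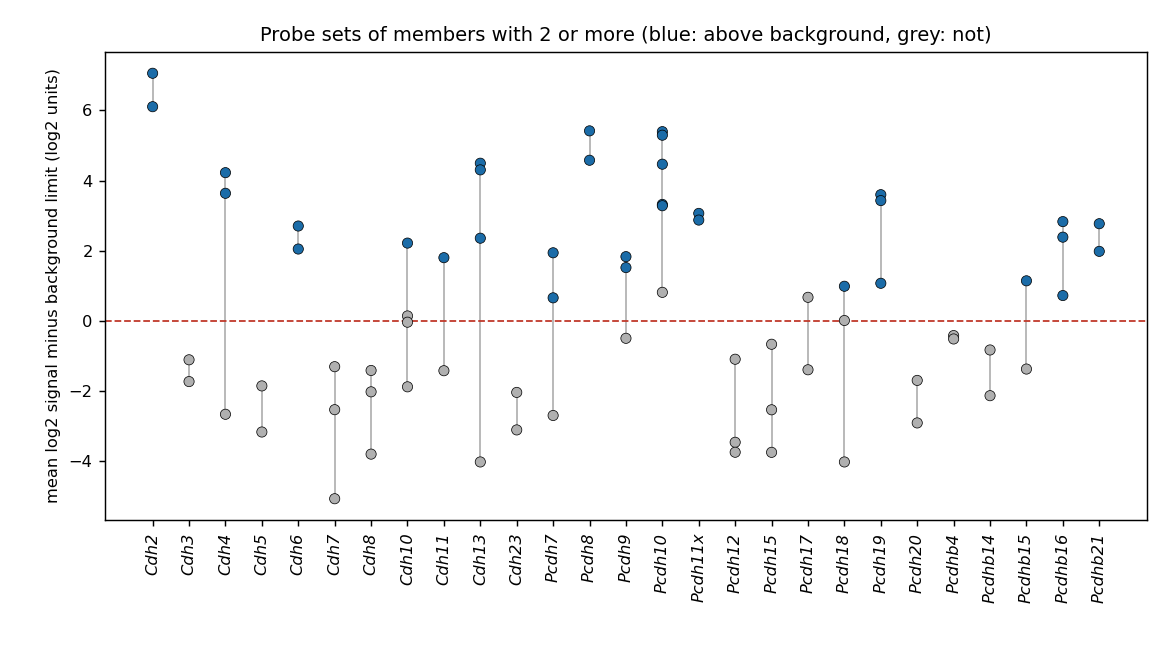
Mean log2 signal minus the background limit (vertical axis, log2 units) of each probe set of the 27 members with 2 or more probe sets. Blue points were above background and grey points were not; in Cdh4, Cdh10, Cdh11, Cdh13, Pcdh7, Pcdh9, Pcdh10, Pcdh18 and Pcdhb15 both kinds occur.

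The spread of the members between arrays was set beside that of all genes, after the median deviation of each array (-0.18, 0.016 and 0.16 log2 units) was taken out. The 29 members above background had a median range over the arrays of 0.40 log2 units, against 0.35 for the 10568 genes above background. A range over 1 log2 unit was seen for Cdh20, Pcdhb8, Pcdhb11 and Pcdhb21, which are 13.8% of the 29 members, against 3.28% of all genes above background. In the Cdh genes above background the median range was 0.27, and in the clustered protocadherins 0.53. These groups were not matched on level, and the median range was 1.60 for all genes not above background. The part of level in these differences of range was not tested. Of the 14 clustered genes, 11 were highest on replicate 2 (78.6%, against 25.1% of all genes above background), and 10 were lowest on replicate 3 (71.4%, against 40.1%). These genes share a locus and similar sequences and are not replicates of each other. Over the same arrays, with the median deviation left in, the summed linear signal was 16751, 18438 and 20648 for the astrocyte markers. It was 10980, 12236 and 12906 for the neural precursor markers and 286, 325 and 374 for the neuronal ones. For the ependymal ones it was 796, 787 and 1413, with Foxj1 the highest of them, at log2 9.49, 9.46 and 10.33. These sums thus also hold the array-wide deviation that was taken out of the members. The part of these shifts in the members' differences was not tested.

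Other genes of cadherin adhesion were taken from lists. Among catenins and junction partners 12 of 14 were above background, among them Ctnnb1, which encodes beta-catenin, at 12.71 ± 0.10, Ctnna2, the alpha-catenin of neurons, at 9.41 ± 0.33, and Ctnnd2, the delta-catenin of neural tissue, at 9.88 ± 0.28. Ctnna3, an alpha-catenin of heart, at 4.03 ± 0.75, and Nectin1, a junction protein, at 4.78 ± 0.57, did not pass. Of 18 measured genes of the wider cadherin superfamily 7 were above background, namely Celsr1, Celsr2, Fat1, Fat3, Fat4, Dchs1 and Clstn1. Fat4 and Dchs1, which bind each other across cell contacts, were at 6.04 ± 0.35 and 6.32 ± 0.46. Of genes for processing and signalling 3 of 4 were above background, including Adam10, the protease that sheds Cdh2, at 10.50 ± 0.34. Of 13 measured regulators of the clustered protocadherins 12 were above background, among them Ctcf, which binds their promoters, at 8.80 ± 0.34, and the cohesin subunit gene Rad21, at 10.34 ± 0.34. Dnmt3b, a DNA methyltransferase that acts on the clustered promoters, was at 3.94 ± 0.53 and did not pass. The levels were measured in the same fit, in which 58.3% of genes were above background. The lists were chosen with earlier results of these data known, so their counts are a description only.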

How the data were processed

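The authors deposited linear intensities, 1 for each probe set of each array, from biotin-labelled total RNA of 3 samples on 1-colour arrays. GCOS 1.4 was used, per the submitters' processing notes. The sources used here give neither its settings nor a scaling target, and the number of arrays limits the precision. Of 45101 probe sets, 34958 named 1 gene in the platform annotation, 932 with several names were not used, and 9211 were not listed with any. All 56 member symbols matched the RefSeq table of GRCm38.p6. No protein or probe sequences were used, and Cdh12 and Cdh24 were not analysed here.

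Log2 was taken with no pseudocount, and each gene took its probe set with the highest mean. Signal over background was tested in R 4.3.3 with limma 3.58.1 (one-sample, one-sided, eBayes, Benjamini-Hochberg over all genes tested, adjusted p below 0.05). The test step was also run on simulated independent normal values, which held neither array-wide deviations nor the choice of probe set. Every member is named. Values on each array are given for all Cdh and non-clustered Pcdh genes and the 6 clustered genes farthest above the limit. Members and lists were chosen with earlier results of these data known. Alternatives covered the probe set rule, the limit, normalization, the pseudocount, a filter, the variance model and each replicate left out. Promoter sequences are RefSeq's for GRCm38.p6.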

Additional observations from a re-analysis of the deposited data

Results flagged for a closer look

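Data outside the gene values held signal over the background limit. The 3 probe sets that the platform annotation lists for 14 genes of the alpha protocadherin array had mean distances of 4.95, 3.88 and 1.63 log2 units from the limit, each over it on all 3 arrays. They were left out of the gene values because they name several genes.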

How the results depend on the processing

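No paired analysis was possible because all samples belong to 1 group. Of the 29 members above background, 23 passed under each of the 11 alternatives, and of the 27 others 24 passed under none of those that tested them. The count of members was 25 when each gene took the median over its probe sets, 26 with the limit at the 99th percentile, and 26 to 29 when 1 replicate was left out. Under that median the type II count was 3. Cdh10, Cdh11 and Pcdh18 also lost their calls there. Pcdhb15 turned to -0.090 log2 units with that median and to -1.37 when probe sets able to bind more than 1 transcript were left out. With the limit at the 99th percentile Pcdh18, Pcdhb8 and Pcdhb12 did not pass (adjusted p = 0.0666, 0.183 and 0.351, limma). The filter on genes above the limit on at least 1 array left 38 members, so 18 had no value there, and Cdh23 had none once probe sets able to bind more than 1 transcript were gone. Signal near the limit restricts what can be said of members within about 1 log2 unit of it.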
